A study of Mus musculus with 2 samples.

Results

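Genes that mark the small blood vessels of the brain were followed in long-read RNA sequencing of the mouse cortex: the endothelial genes Cldn5, Cdh5, Pecam1, Flt1, Slc2a1, Itm2a and Ly6c1, the widely expressed membrane glycoprotein gene Bsg, and the pericyte genes Rgs5 and Vtn. They were chosen by gene name, as 10 of the 18510 annotated genes that had at least 1 read. Earlier results of these data were known at the time of the choice. The tissue was the left cerebral cortex of female mice aged 14 days, of the strain B6CASTF1/J, hybrid offspring of the strains C57BL/6J and CAST/EiJ. The samples form 1 group of 2 libraries, labelled as biological replicates 1 and 2 and each made from 2 µg of RNA, with no treatment, mutant allele or other age beside them. Replicate 1 may be pooled from 3 females, by the wording of its label, so the spread between the libraries may not be that between single animals. Reads were not assigned to the parental alleles.

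Capillary endothelial cells of the brain are sealed to each other by tight junctions and carry glucose, amino acids and lactate across by dedicated transporters, which together make the blood-brain barrier. Pericytes lie on the outside of the capillary within a shared basement membrane, and are needed for the barrier to form and for vessels to stay stable. In the early postnatal cortex the vessel bed is still growing, under control of vascular endothelial growth factor (VEGF), platelet-derived growth factor and Wnt signals.

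Replicate 1 held 1072344 mouse reads and replicate 2 held 753520, so 1 read was worth 0.933 and 1.33 RPM, reads scaled to 1000000 mouse reads. A gene with no read may have had up to 3 reads, or 2.80 and 3.98 RPM. A long read is read from 1 cDNA and not from fragments of it, so RPM was not divided by transcript length; duplicate copies of a cDNA were not removed. Errors of levels are SDs over the 2 libraries, and intervals are exact Poisson intervals for levels and Wilson intervals for shares, at 95%. They cover counting error only, and for a share of 0 the share that 3 reads would be is given instead. Whole cortex was sequenced, so fewer cells of a type and less RNA per cell cannot be told apart. Of the defining markers, 13 of 13 for brain endothelial cells and 8 of 8 for pericytes had reads in both libraries. The markers were chosen with earlier results known, and some had few reads, such as Erg with 2 and 1 and Abcc9 with 3 and 2. In the longer list of 15 pericyte genes beside Rgs5 and Vtn, 13 had reads in both libraries.

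All 10 genes were detected in both libraries, from 2 reads for Cdh5 to 1771 for Bsg. Bsg was the most abundant at 1637 ± 21.1 RPM (SD, n = 2), rank 30 of all detected genes. Cldn5 followed at 355 ± 27.2 RPM, then Itm2a at 169 ± 6.22 and Rgs5 at 128 ± 12.3. Slc2a1 stood at 82.2 ± 26.2 RPM and Vtn at 69.3 ± 10.9, and the values of these neighbours overlapped between libraries. Flt1 at 20.5 ± 2.69 RPM, Pecam1 at 13.6 ± 0.507, Ly6c1 at 11.9 ± 5.58 and Cdh5 at 2.92 ± 1.50 formed the low end. Pecam1 and Ly6c1 also overlapped. The values of every other pair of neighbours were separate, yet counting intervals overlapped between Itm2a and Rgs5, between Rgs5 and Slc2a1, and among the last 4 genes. The median of the 10 genes was 75.7 RPM, against 10.8 RPM for all detected genes. Because the genes were chosen with earlier results known, this gap cannot be read as a result about vessel genes.

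**Figure D1:**
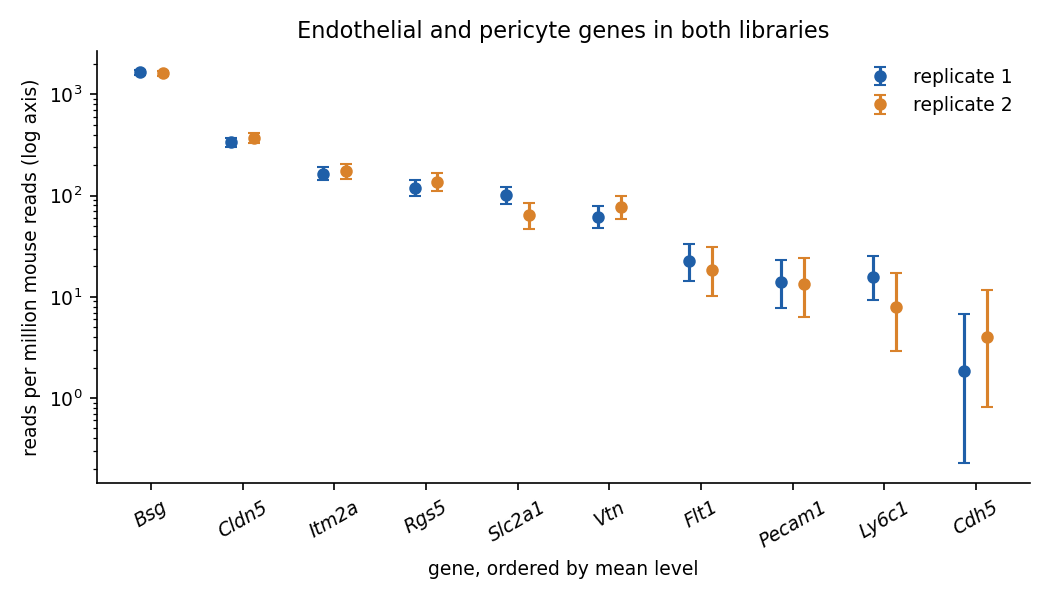
Level of each gene in RPM on a log axis, in replicate 1 (blue) and replicate 2 (orange), ordered by the mean; bars are exact Poisson 95% intervals of the read count. Bsg lies near 1640 RPM in both libraries and Cdh5 near 3 RPM.

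Together the 10 genes took 2488 RPM in replicate 1 and 2491 RPM in replicate 2. Bsg alone made up 66.4% and 65.1% of that, and the other 9 genes summed to 836 and 869 RPM. Main transcripts differed in length along this order. The 5 genes whose main transcript is under 2000 bases (Bsg, Cldn5, Itm2a, Vtn and Ly6c1) ranged from 11.9 to 1637 RPM, and the 5 with one over 3000 bases (Rgs5, Slc2a1, Flt1, Pecam1 and Cdh5) from 2.92 to 128 RPM. The part of length in these levels was not tested.

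The junction and adhesion genes spanned a wide range of levels. Cldn5 encodes claudin-5, the main claudin of the endothelial tight junction, and is a single-exon gene (mm10 chr16:18776847-18778262). It had 360 reads in replicate 1 and 282 in replicate 2, or 336 and 374 RPM. All of them fell on 1 model, Cldn5-201, of 1416 bases. Cdh5 encodes VE-cadherin, the cadherin of the endothelial adherens junction (chr8:104101625-104144511). It had 2 reads in replicate 1 and 3 in replicate 2, or 1.87 and 3.98 RPM. 1 read in each library ran through the 12 exons of Cdh5-201; the others, 1 and 2 reads, were single-exon reads within its last exon, of the class Genomic. The interval of Cdh5 in replicate 1 reached from 0.226 to 6.74 RPM, so no more than its presence can be read at this depth.

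Pecam1 encodes PECAM-1, an adhesion molecule of endothelial cells and platelets whose intracellular end binds phosphatases and is known to be alternatively spliced (chr11:106654217-106750628, minus strand). It had 15 and 10 reads, or 14.0 and 13.3 RPM. No single transcript led. Pecam1-204, with all 16 exons, had 4 and 2 reads, Pecam1-202 had 2 and 3, and Pecam1-203 had 1 and 1. The most abundant chain in both libraries outside the annotation joined annotated splice sites over 13 exons, with 1 read in each, and was singled out after its values were seen.

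The variation lay in the exons that encode the intracellular end. The 3 exons printed here were skipped by some reads, and the letters show how small they are; capitals mark the exon and lower case the neighbouring exons of Pecam1-204 (mm10, minus strand, GENCODE M21 transcript).
Pecam1 exon 12: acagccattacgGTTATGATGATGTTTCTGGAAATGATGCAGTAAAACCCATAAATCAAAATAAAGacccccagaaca
Pecam1 exon 14: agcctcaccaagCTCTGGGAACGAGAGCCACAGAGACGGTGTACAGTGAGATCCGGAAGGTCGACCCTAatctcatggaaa
Pecam1 exon 15: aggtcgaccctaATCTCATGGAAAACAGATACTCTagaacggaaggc
Exon 12 (54 bases, chr11:106681032-106681085) was in 13 of 15 spanning reads in replicate 1 and 7 of 10 in replicate 2. Exon 14 (57 bases, chr11:106671742-106671798) was in 9 of 15 and 7 of 10. Exon 15 (23 bases, chr11:106662002-106662024) was in 7 of 14 and 3 of 10. Exons 11 and 13, which flank exon 12, were in every read that spans them with the annotated boundaries, 23 and 25 reads over both libraries. The lengths of exons 12 and 14 are multiples of 3 bases and that of exon 15 is not, so a read without exon 15 has another reading frame behind it. Exon 11 had a shifted boundary in 2 further reads. Over both libraries 7 combinations of these exons occurred: 7 reads had all of exons 11 to 15, 6 reads lacked exon 15 alone, and 3 reads held exons 11 and 13 alone. With 25 reads in all, these exons were below the 20 spanning reads in each library that a test of the difference needed.

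**Figure D2:**
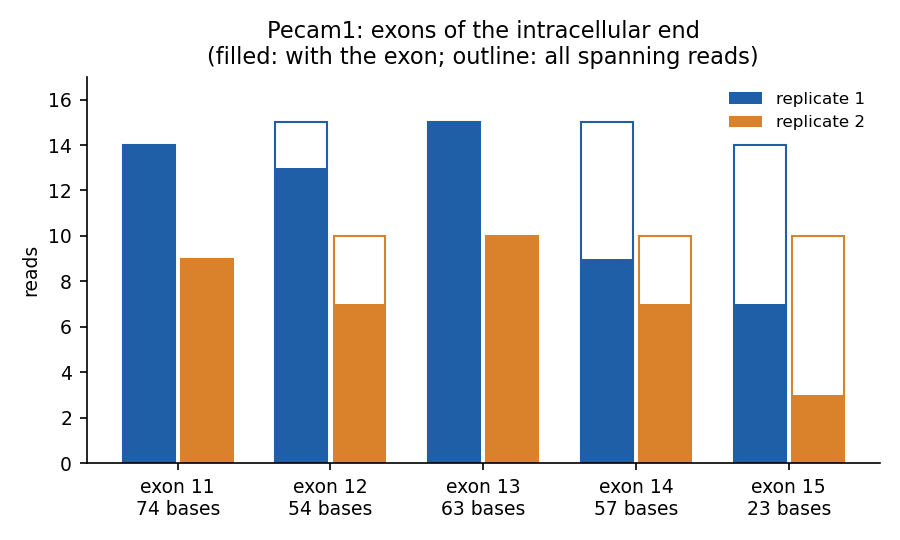
Reads of Pecam1 with each exon of its intracellular end (filled bars) among all reads that span it (outlines), in replicate 1 (blue) and replicate 2 (orange). Exons 11 and 13 were in every spanning read; exon 15 was in 7 of 14 and 3 of 10.

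Flt1 encodes VEGF receptor 1, which binds VEGF-A, VEGF-B and placental growth factor. Besides the membrane receptor it makes a soluble form without the membrane and kinase parts, known as a trap for VEGF. The soluble form arises when transcription reads on from exon 13 into intron 13 and ends there. The 2 ends are given as the last 30 bases of exon 13 in lower case followed in capitals by what differs. The soluble end of Flt1-203 adds 95 coding bases of intron 13 up to and including its stop codon TAA (chr5:147639130-147639254 with the shared part, minus strand). The membrane form of Flt1-202 goes on with exon 14, of which 60 of 147 bases are given.
Flt1 soluble end: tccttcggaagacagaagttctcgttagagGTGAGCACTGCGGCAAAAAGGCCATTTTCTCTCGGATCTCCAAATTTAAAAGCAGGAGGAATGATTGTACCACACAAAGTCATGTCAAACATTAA
Flt1 membrane join: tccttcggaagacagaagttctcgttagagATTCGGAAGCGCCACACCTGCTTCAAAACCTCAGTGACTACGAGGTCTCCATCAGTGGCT
Flt1 (chr5:147561604-147726011) had 24 reads in replicate 1 and 14 in replicate 2, or 22.4 and 18.6 RPM. The soluble form had 15 reads in replicate 1 and 6 in replicate 2. Reads of the membrane form, beyond exon 14 into the parts for the membrane and kinase domains, numbered 0 and 3, of which 2 followed the 30 exons of Flt1-202 exactly. Another 2 and 1 reads spliced exon 13 to exon 14 and then to a last exon of 307, 231 or 254 bases that lies 210 bases or more past exon 14 and outside the annotation. The last exons of 231 and 254 bases, 1 read in each library, were joined to exon 14 at the same position.

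Of reads that pass the end of exon 13, those without the membrane part were 17 of 17 in replicate 1 (100%, 95% interval 81.6% to 100%) and 7 of 10 in replicate 2 (70.0%, 39.7% to 89.2%). The soluble form was the most frequent in both libraries, and the intervals of the libraries overlap. With so few reads the share was not tested between them. The remaining reads were 1 that stopped at the end of exon 13, 1 that stopped before it, and single-exon reads: 4 and 1 in the last exon of the soluble form (1 of the 4 a model of a single base at the end of exon 13, which both forms share), 1 and 2 in that of the membrane form, and 0 and 1 within an intron. Over its exons, 4 reads in each library lay on the opposite strand and were not counted to Flt1. The annotated soluble transcript measures 6292 bases and the membrane transcript 6895.

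**Figure D3:**
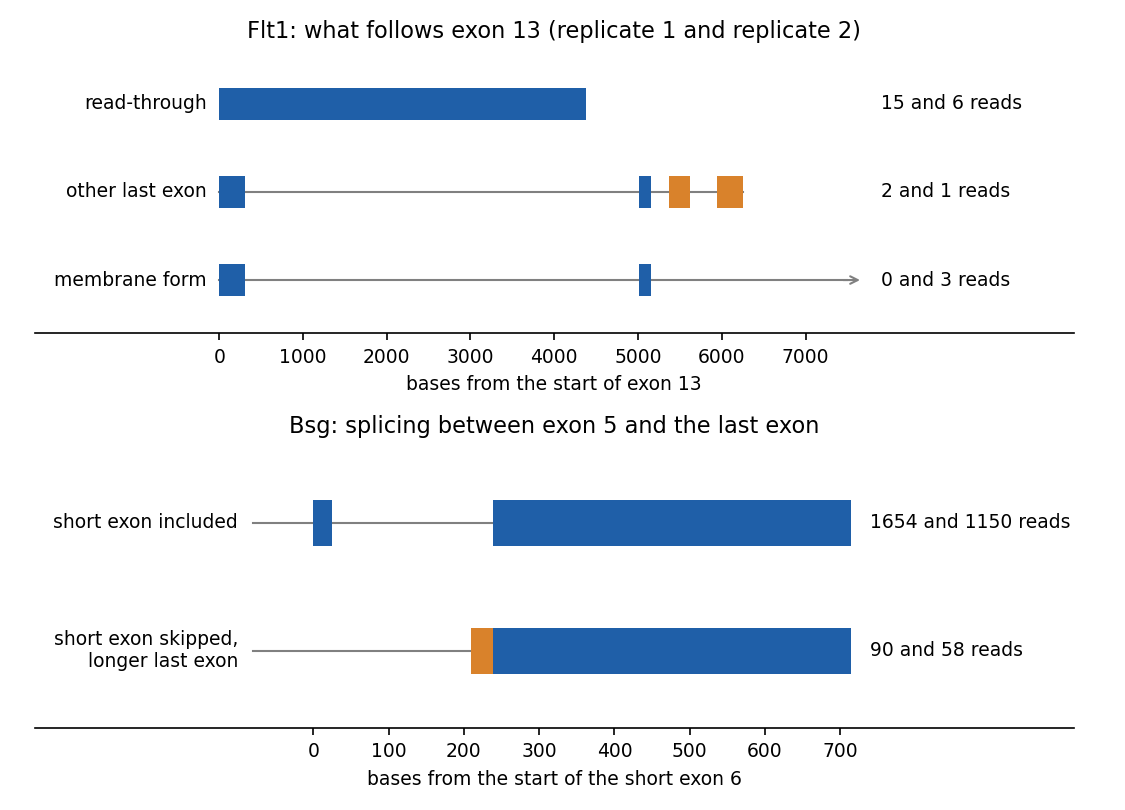
Upper map: what followed exon 13 of Flt1, in bases along transcription, with reads in replicate 1 and replicate 2. Lower map: splicing between exon 5 and the last exon of Bsg; blue boxes are annotated exons and orange boxes lie outside the annotation. The soluble read-through had 15 and 6 reads and the Bsg form without the short exon 90 and 58.

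Slc2a1 and Bsg serve transport. Slc2a1 encodes GLUT1, the glucose transporter of the barrier, also made by astrocytes (chr4:119108711-119137983). It had 108 reads in replicate 1 and 48 in replicate 2, or 101 and 63.7 RPM. This was the widest gap between libraries among the genes above 20 RPM, with a log2 ratio of replicate 2 over replicate 1 of -0.65. It did not pass the test over all genes (exact binomial p = 0.00728, Benjamini-Hochberg adjusted p = 0.261). Slc2a1-201, of 10 exons and 3260 bases, had 84 of 89 and 37 of 40 full-chain reads (94.4% and 92.5%). Incomplete models made up 17.6% and 16.7% of its reads, and each of them lacked exons at the 5′ end. The annotated Slc2a1-204, classed as a target of nonsense-mediated decay, had 1 read in each library.

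Bsg encodes basigin, also called CD147, an immunoglobulin-family glycoprotein that brings monocarboxylate transporters to the cell surface and is strong on brain capillaries, though not limited to them (chr10:79704491-79711969). It had 1771 reads in replicate 1 and 1222 in replicate 2, or 1652 and 1622 RPM. The depth was enough to count its splice forms as aligned. Bsg-205, of 7 exons and 1261 bases, had 1605 of 1747 full-chain reads (91.9%, 90.5% to 93.1%) and 1119 of 1205 (92.9%, 91.3% to 94.2%). Its 25-base exon 6 (chr10:79711256-79711280), within the coding sequence near the 3′ end, is shown because it is the only internal exon of the 10 genes that entered the inclusion test; capitals mark the exon.
Bsg exon 6: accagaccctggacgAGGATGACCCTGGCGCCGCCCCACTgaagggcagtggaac
Reads with this exon were 1651 of 1757 spanning reads in replicate 1 (94.0%) and 1147 of 1214 in replicate 2 (94.5%). This difference did not pass Fisher's exact test (two-sided p = 0.578, adjusted p = 1.0), where 1 of 2283 exons over all genes was called (0.0438%). Among reads skipping the exon, 1 alternative led. In 90 and 58 reads exon 5 was joined to a last exon that starts at position 79711466, 28 bases before the annotated start. As aligned, losing 25 bases and gaining 28 adds 3 bases, a length that keeps the reading frame behind the join. The 28 added bases were not examined for a stop codon. Read sequences were not examined, so how the aligner placed bases around so short an exon was not tested. The full chain with this join and no other change had 86 and 52 reads and was the most abundant unannotated chain of the 10 genes. The sum of all skips with a last exon starting upstream was 93 of the 1752 reads spliced at the end of exon 5 in replicate 1 (5.31%, 4.35% to 6.46%) and 59 of 1213 in replicate 2 (4.86%, 3.79% to 6.22%), and the intervals overlap. None of these reads, which use the annotated end of exon 5, went on to the annotated start of the last exon, which allows a share of up to 0.171% and 0.247%.

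Other Bsg forms were rare. The long form with an extra 348-base exon 2 (chr10:79708697-79709044), which adds an immunoglobulin domain and is known from photoreceptors, had 5 of 1730 informative reads in replicate 1 (0.289%, 0.124% to 0.675%) and 0 of 1190 in replicate 2, which allows a share of up to 0.252%. The chain of Bsg-202, annotated with an alternative start, had 9 and 7 reads. All of its introns are shared with Bsg-205, so a Bsg-205 read cut short at the 5′ end would give the same chain. Which of the 2 these reads are was not tested. In all, 36 unannotated full chains of Bsg were seen, 9 of them in both libraries. Most of those seen in 1 library alone rested on a single read, and some differed from Bsg-205 by only a few bases at a splice site.

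The remaining endothelial genes were Itm2a and Ly6c1. Itm2a encodes a small integral membrane protein enriched in brain endothelium (chrX:107397099-107403376). It had 177 and 131 reads, or 165 and 174 RPM, and 173 of 175 and 129 of 131 full-chain reads followed the 6 exons of Itm2a-201. Ly6c1 encodes a lipid-anchored surface protein of the Ly6 family that marks capillary endothelium in the mouse (chr15:75044018-75048830). It had 17 reads in replicate 1 and 6 in replicate 2, or 15.9 and 7.96 RPM; the log2 ratio of -0.92 did not pass the test (adjusted p = 0.853), and the counting intervals overlap. Ly6c1-201 had 10 of 12 and 5 of 6 full-chain reads. Over both libraries 4 annotated transcripts of Ly6c1 had reads, and incomplete models held 5 reads in replicate 1 and 0 in replicate 2.

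Ly6c1 has a near copy, Ly6c2, known from monocytes. Their coding sequences are both 396 bases long and differ at 9 positions (97.7% identical). The 60 coding bases with 6 of these differences are shown, with the differing bases in capitals, to make plain what separates the copies (mm10, chr15:75048447-75048506 and chr15:75111603-75111662, both minus strand).
Ly6c1: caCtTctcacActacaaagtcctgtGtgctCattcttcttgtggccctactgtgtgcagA
Ly6c2: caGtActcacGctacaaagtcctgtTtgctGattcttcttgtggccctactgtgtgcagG
All 17 and 6 reads were given to Ly6c1 and 0 to Ly6c2 in either library. Because the tables give each read to 1 gene, the split between the copies remains uncertain.

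Of the 2 pericyte genes, Rgs5 was the more abundant. Rgs5 encodes a GTPase-activating regulator of G-protein signalling and is a standard pericyte marker (chr1:169655501-169695813). It had 128 reads in replicate 1 and 103 in replicate 2, or 119 and 137 RPM. Rgs5-201, of 5 exons and 4096 bases, had 115 of 119 and 89 of 91 full-chain reads. A further 9 and 10 reads were single-exon models over its last exon of 3635 bases. Over the same exon, 8 reads in each library lay on the opposite strand and were not counted to Rgs5. Vtn encodes vitronectin, a secreted glycoprotein of plasma and matrix that pericytes make in the brain (chr11:78499091-78502324). It had 66 and 58 reads, or 61.5 and 77.0 RPM, with 59 of 61 and 51 of 54 full-chain reads on Vtn-201. The RPM of both genes was greater in replicate 2, with log2 ratios of 0.20 and 0.32, but neither passed the exact binomial test (adjusted p = 0.918 and 0.879). The other pericyte genes leaned the other way, also with none called: 2 of 7 tested had a ratio above 0 and 5 below, the median log2 ratio was -0.41, and the 15 summed to 93.3 and 84.9 RPM.

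Between the libraries, 0 of the 9 genes with 10 or more reads were called at an adjusted p under 0.05 by the exact binomial test, where 100 of 11339 genes were called (0.882%), 41 of them higher in replicate 2 and 59 lower. With scaling to the ERCC spike-ins these were 304 and 19, and Cldn5 and Bsg were then called. At an unadjusted p under 0.05 the count was 1 of 9, Slc2a1, against 975 of all 11339. Cdh5 had too few reads to be tested. The median log2 ratio was -0.03 over the 9 genes and -0.0035 over all genes tested; 4 of the 9 had a ratio above 0 and 5 below, of which the signs of Bsg and Pecam1 turned with ERCC scaling. As there is 1 group, this test sets the libraries against counting error and says nothing of a condition.

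The share of reads on annotated transcripts was 100% in both libraries for Cldn5, 97.7% and 98.5% for Itm2a, 91.4% and 92.2% for Bsg, 90.6% and 87.4% for Rgs5, 90.9% and 89.7% for Vtn, and 78.7% and 79.2% for Slc2a1. These 6 lay above the median of 76.1% over the 6189 genes tested. Flt1 had 13 of 24 and 8 of 14 reads on annotated transcripts, Pecam1 7 of 15 and 6 of 10, Ly6c1 12 of 17 and 6 of 6, and Cdh5 1 of 2 and 1 of 3. None of the 6 genes with 20 or more reads in each library was called between libraries by Fisher's exact test, where 5 of 6189 genes were called (0.0808%). In the share of the main chain none of 5 was called, where 12 of 4908 genes were (0.244%). Outside Pecam1 and the 2 Bsg exons named above, 39 annotated internal exons of 7 of the genes could be scored: 38 were in over 97% of spanning reads in both libraries, and the exception was a 114-base exon of Slc2a1 in 1 of 88 and 0 of 40 reads, the latter allowing up to 7.5%. The exons of Flt1 and Ly6c1 had under 20 spanning reads in each library. In replicate 2 their intervals reached down to 72.2% for Flt1 (10 of 10 reads) and 61.0% for Ly6c1 (6 of 6).

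**Figure D4:**
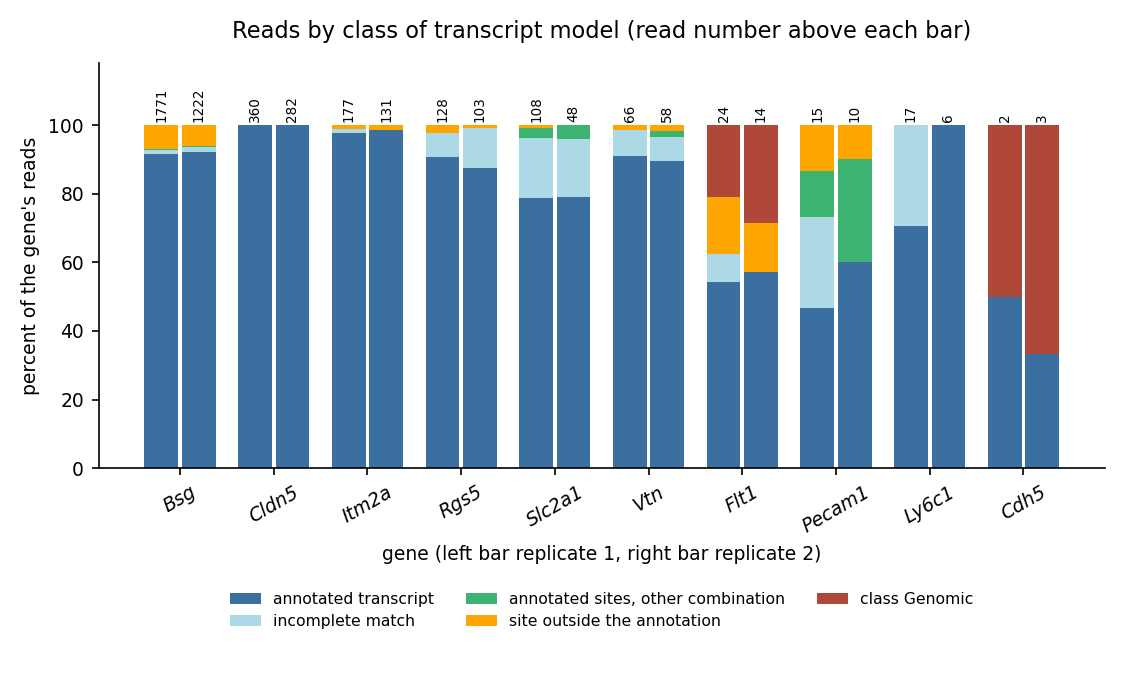
Percent of each gene's reads in the classes of transcript model, with replicate 1 on the left and replicate 2 on the right of each pair and the read number above each bar. Cldn5, Itm2a, Bsg, Rgs5 and Vtn are mostly annotated; Flt1, Pecam1 and Cdh5, with 2 to 24 reads a library, are mixed.

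Genes of the same cells and pathways were read from 14 further lists, 164 genes outside the 10. None of the 116 with 10 or more reads was called between libraries by the exact binomial test, against 100 of all 11339 genes (0.882%). At an unadjusted p under 0.05 there were 13 of the 116, against 975 of all 11339. The lowest adjusted p among the 116 was 0.0913. Among 22 other endothelial genes, all had reads in both libraries, with a median of 10.7 RPM. The highest were Car4, a carbonic anhydrase of the capillary surface, at 112 ± 2.89 RPM, Cd34, a sialomucin, at 91.2 ± 10.8, and Esam, an endothelial adhesion molecule, at 51.9 ± 9.64. The 15 genes of barrier transport had a median of 63.0 RPM and were led by Slc3a2, the shared heavy chain of amino acid transporters, at 248 ± 1.52, the matrix proteoglycan Spock2 at 215 ± 13.5 and the thyroid hormone transporter Slco1c1 at 135 ± 20.98. Several of these are also made by astrocytes or neurons, so their levels are not those of vessels alone.

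Junction genes beside Cldn5 and Cdh5 had a median of 14.9 RPM over 14 genes. Ctnnb1, β-catenin, stood at 165 ± 1.01 RPM, Cldn12 at 50.1 ± 2.31 and Cdh2, N-cadherin, at 42.5 ± 20.6. Of the Wnt and norrin genes that induce the barrier, Tnfrsf19, a Wnt target, stood at 59.8 ± 7.68 RPM, the ligand Wnt7b at 40.4 ± 2.99 and Tspan12, a partner of the norrin receptor, at 33.0 ± 5.83. The most abundant genes of the growth factor list were ligands: Vegfb, which binds VEGF receptor 1, at 79.9 ± 12.8 RPM, Pdgfb, which recruits pericytes, at 70.0 ± 7.99, and Vegfa at 59.0 ± 2.94. Each of these ligands was above Flt1, whose reads also include the soluble form. Whole cortex was sequenced, so the levels of these junction, Wnt and growth factor genes need not be those of vessels alone.

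The 15 pericyte genes beside Rgs5 and Vtn had a median of 4.12 RPM, so both were above all of them. Pdgfrb, the receptor for PDGF-B, stood at 18.1 ± 4.46 RPM, Cspg4, the NG2 proteoglycan, at 16.2 ± 2.21 and the transporter-family ATPase Atp13a5 at 11.7 ± 5.99. The 9 smooth muscle genes had a median of 2.92 RPM, with Myl9 at 19.9 ± 7.48 RPM, Acta2 at 19.8 ± 3.63, Tpm2 at 8.84 ± 0.634, and Cnn1 and Lmod1 at 0 reads in both libraries. Fibroblast genes were present, with Col3a1 at 103 ± 30.8 RPM, Dcn at 44.1 ± 20.2 and Pdgfra, also a marker of oligodendrocyte precursors, at 39.3 ± 1.14, and Dpep1 at 0. Plvap, the diaphragm protein of fenestrated vessels, stood at 10.2 ± 1.34 RPM, with Cd36 at 1.33 ± 1.88, Esm1 at 1.13 ± 0.279 and Ptgir at 0.

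**Figure D5:**
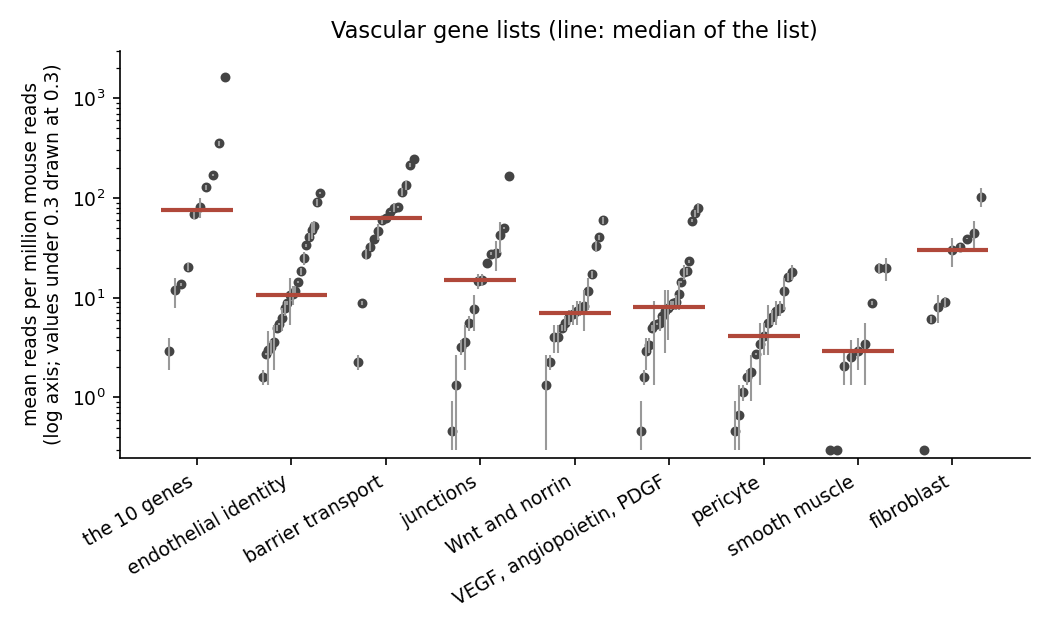
Mean RPM of each gene (points, log axis) in the 10 genes and in 8 further lists; grey lines join the values of the 2 libraries and red lines are list medians. The 10 genes (75.7 RPM) and the barrier transport list (63.0) have the highest medians shown. Genes and lists were chosen with earlier results of these data known.

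A list of 9 genes around basigin, its known partners among them, had a median of 49.1 RPM. The extracellular ligand Ppia, cyclophilin A, stood at 1104 ± 77.4 RPM, Atp1b2, a sodium pump subunit, at 295 ± 17.9 and the integrin Itgb1 at 127 ± 2.79, while the monocarboxylate transporter Slc16a8 had 0 reads. The other transporters of that family, named after their values were seen, stood at 80.8 ± 2.13 RPM for Slc16a1, 15.9 ± 0.0510 for Slc16a7 and 6.38 ± 1.52 for Slc16a3. Other Ly6-family genes ranged from Ly6h at 312 ± 61.6 RPM, Ly6e at 177 ± 20.4 and Lynx1 at 121 ± 16.7 to 0 reads for Ly6g, Ly6i and Gpihbp1. Cells around and inside the vessels were in the samples as well. Astrocyte genes with end-foot roles were led by Gja1 at 647 ± 45.3 RPM, Slc1a3 at 596 ± 63.5 and Slc1a2 at 353 ± 22.2, and the microglial genes P2ry12 and Csf1r stood at 112 ± 6.09 and 96.6 ± 6.04. Red blood cell genes were led by Hba-a1 at 269 ± 46.2 RPM, Hbb-bs at 140 ± 21.4 and Hba-a2 at 68.5 ± 13.8, with Slc4a1 at 0; Hba-a1 and Hba-a2 are near copies and their split is uncertain. The defining markers of red blood cells summed to 420 and 535 RPM and those of smooth muscle to 31.7 and 19.9 RPM in replicates 1 and 2. Markers of brain endothelial cells summed to 712 and 788 RPM and those of pericytes to 239 and 276. The highest were Cldn5 and Slco1c1 among the endothelial markers, and Rgs5 and Vtn among the pericyte markers. Such sums over a few genes of whole cortex are not the RNA share of a cell type. The 22 other endothelial genes summed to 541 and 491 RPM, greater in replicate 1. The 15 other pericyte genes summed to 93.3 and 84.9 RPM, also greater in replicate 1. The part of these cells in the differences between libraries was not tested.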

How the data were processed

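Left cortex RNA of 1 group was measured in 2 libraries. Per the file headers, the authors deposited, for each library, a table of raw counts of reads on transcript models, placed on mm10 and the GENCODE M21 annotation; TALON is named as source of unannotated models. Aligner and versions: not given in the sources used here. 1 parental strain serves as reference. The tables list only models with at least 1 read, and TALON classes each model as annotated, incomplete, a new combination of annotated sites, a site outside the annotation, or Genomic, here taken as labelled. Total depth was 1087280 and 762376 reads, of which 14936 and 8856 were ERCC spike-ins, left out of the mouse totals. Reads are not corrected for duplicates.

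Counts were summed per gene and scaled to 1000000 mouse reads. Chains were matched between libraries by intron positions. Gene levels of the libraries were tested by the exact binomial test, two-sided (10 or more reads in total, log2 ratios with a pseudocount of 0.5 reads), and shares by two-sided Fisher's exact tests (20 or more reads in each library; exons with a pooled inclusion of 5% to 95%), each with Benjamini-Hochberg adjustment over all features, called at 0.05. With 1 group a count model has no contrast; edgeR 4.0.16 and DESeq2 1.42.0 gave scaling factors only. Tests were checked on simulated data. Python 3.11.15, pandas 2.3.3, scipy 1.17.1 and R 4.3.3 were used. Alternatives were other scalings, read minimums, model classes and pseudocounts, and each library alone. The members and lists were chosen with earlier results of these data known.

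All 10 genes were named. Of each other list, the 3 highest by mean RPM, called members and defining members at 0 in both libraries were named; of transcripts, the main chain, other annotated ones with 5% or more of full-chain reads in both libraries, and the top unannotated chain; of exons, those in the inclusion test. 1 gene that this rule names is not reported here. The Pecam1, Flt1 and further Bsg forms, Slc2a1-204 and the Slc2a1 exon were added after their values were seen. Sequences and exon positions are from GENCODE M21.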

Additional observations from a re-analysis of the deposited data

Results flagged for a closer look

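Reads on the opposite strand lay over exons of 3 of the genes and entered no comparison above. Slc2a1 had 1 such read, in replicate 1. Over the last exon of Rgs5, 1 unspliced model on the minus strand had 8 reads in replicate 1 (chr1:169692619-169694781) and another 8 reads in replicate 2 (chr1:169692615-169694282). Over exons of Flt1, reads on the plus strand numbered 4 in replicate 1 and 4 in replicate 2, of which 3 in each library were unspliced and lay in the last exon of the soluble form (chr5:147637236-147638554 and chr5:147636826-147638642). In each library the 4 reads at Flt1 are a sum over a model of 3 reads and a model of 1 read. There are no control samples to set the counts at Rgs5 and Flt1 against, and their origin was not tested.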

How the results depend on the processing

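No paired analysis was possible because the series holds 1 group. The number of genes called between libraries, 100, became 323 with scaling to ERCC spike-ins, 35 with annotated models alone and 176 without the class Genomic. Scaling to ERCC spike-ins moved the median log2 ratio of all genes from -0.0035 to 0.24, and the members called rose from 0 to 2: Cldn5 at 0.40 (adjusted p = 0.0251) and Bsg at 0.22 (adjusted p = 0.00477), the latter under the shift of all genes. Signs close to 0 turned: Pecam1 from -0.05 to 0.19 with ERCC scaling, 0.37 with annotated models alone and 0.0065 with a pseudocount of 2 reads, and Bsg from -0.03 to 0.22 with ERCC scaling and 0.059 with annotated models alone. Main chain calls over all genes went from 12 to 5 with incomplete models included, annotated share calls from 5 to 80 without the class Genomic, and exon calls from 1 to 4 with full chains alone; the cause was not tested. With annotated models alone, scaled to their own total, the levels of Cldn5 and Itm2a became 543 and 254 RPM, over 1.5 times those above, and Cdh5, at 2.92 RPM, became 1.73 RPM; without the class Genomic it became 1.20 RPM. Adding overlapping models on the same strand changed no count. Depth limits Cdh5, Ly6c1, Pecam1 and Flt1, with 5 to 38 reads in total.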
